A study of Mus musculus with 4 samples.

Results

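The genes of oxidative phosphorylation were followed in female mouse embryonic stem cells (ESCs) after 24 hr of treatment. A gene was a member when its name in the deposited tables started with Nduf, Uqcr, Atp5 or Cox4 to Cox8, or was *Sdha*, *Sdhb*, *Sdhc* or *Sdhd*. This rule found 80 of the 9779 genes with a usable value, and no member had a failed estimate. The choice of members used names and no measured value. Genes of the same pathway under other names, and members of the families that are missing from the 80, such as *Cox4i1*, *Ndufa4* and *Atp5d*, were not analysed here.

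Total RNA came from the LF2 line, a female ESC line of strain 129/J with no genetic change given in the labels. The cells were grown on feeder cells and passaged without them before treatment. They received PBS or ascorbic acid (AA, 50 μg/ml), together with DMSO or 10 μM GSK-J4. The study has 1 library for each of the 4 conditions, named PBS+DMSO, PBS+GSK-J4, AA+DMSO and AA+GSK-J4. Where 4 values of a gene follow each other, they are in this order. No difference has a replicate, so no p-value is given. PBS is the vehicle of AA and DMSO that of the inhibitor. The compound GSK-J4 enters cells and inhibits the JmjC histone demethylases Utx and Jmjd3. The paper cites a report that GSK-J4 can also inhibit other JmjC histone demethylases, and draws a like conclusion from its own cells. AA (vitamin C) promotes the activity of enzymes of this class. The line is 1 cell line, and fewer cells of a type and less RNA per cell cannot be told apart in bulk RNA.

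Oxidative phosphorylation takes place in the inner mitochondrial membrane. Complex I oxidizes NADH and complex II oxidizes succinate, complex III passes the electrons to cytochrome c, and complex IV passes them to oxygen. Complexes I, III and IV pump protons, and complex V, the ATP synthase, lets them return and makes ATP. Most subunits are encoded in the nucleus, and a few core subunits of complexes I, III, IV and V come from mitochondrial DNA. Mouse ESCs can use both glycolysis and respiration. Several subunits of complex IV have paired genes, of which one serves most tissues and the other serves muscle, testis or another restricted tissue.

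Values are FPKM, fragments scaled to exon length and to the mapped fragments of the library, and each gene is the sum of its coding sequence groups in the tables. Differences are log2((FPKM + 1)/(FPKM + 1)) between a pair of libraries. A gene entered a comparison when either library of the pair reached an FPKM of 1. On this scale −1 is a halving at high FPKM, and the change of weakly expressed genes is understated. The 4 libraries differed in their FPKM sums, which ranged from 271205 to 360621 and were lower in both GSK-J4 libraries. The median log2 ratio of all genes after GSK-J4 was −0.17 without AA and −0.16 with AA. Scaling the libraries to the same total FPKM moved these medians to 0.17 and 0.14. Counts of members in each direction are therefore given as deposited and, for the main comparisons, also after scaling. Of 10 ESC markers, 9 had values, and these summed to an FPKM of 2356, 1404, 2136 and 1262, lower in both GSK-J4 libraries. The part of this shift in the results for the members was not tested. Of 11 markers of embryonic fibroblasts, the usual feeder cells, 3 (*Col1a1*, *Col1a2* and *Thy1*) were in the tables, with sums between 7.54 and 8.85. The only listed marker of primitive endoderm in the tables, *Sox7* of 6, was at or below 1.61, and the only neural one, *Pax6* of 5, at or below 1.44.

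The members are shown first by their promoters, because genes of this pathway are known to share binding sites of a few ubiquitous factors, among them NRF1, GABPA of the ETS family and YY1. RefSeq promoter windows (build GRCm38.p6, 250 bases before to 50 bases after a transcription start) matched 66 of the 80 members by symbol and gave 69 windows. Exact letters were searched on both strands. The ETS family core CCGGAAG was in 17 of 69 member windows (24.6%), against 8.86% of all 32851 windows and 18.5% of the 9092 windows of genes in the tables. The NRF1 core GCGCATGC was in 12 (17.4%), against 2.71% of all windows and 5.98% of those of expressed genes. The YY1 core AAGATGGC was in 8 (11.6%), against 2.75% and 4.56%. The GC box GGGGCGG was in 21 (30.4%), against 23.2% and 45.7%. At least 1 of the ETS, NRF1 and YY1 cores was found in 31 member genes, and 5 (*Atp5k*, *Atp5l*, *Cox6a1*, *Sdhb* and *Uqcr11*) held both the ETS and the NRF1 core. CCAAT was in 32 windows (46.4%, against 37.4% of all windows and 38.1% of those of expressed genes). TGACGTCA (the CRE) was in 4 (5.80%, against 1.79% and 3.17%) and TATAAA in 5 (7.25%, against 13.6% and 6.39%). TGATGNAA, a composite element bound by ATF4 with CHOP or a C/EBP factor, was in 0 of 69 windows, against 3.97% and 2.06%. A match is a match of letters and not a measured site. The ETS core ends in the letters with which the YY1 core begins, so matches of these cores can share bases.

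The first pair of promoters are those of *Sdhb*, the iron-sulfur subunit of complex II, and of *Atp5k*, subunit e of complex V, shown as members with both cores. The next pair are *Cox6b1* and *Cox6b2*, which encode the widely expressed and the testis form of one complex IV subunit and differed in direction after GSK-J4. The last pair are *Atp5g1* and *Atp5g2*, which encode the same mature c subunit of complex V and differed in size of change. Each is written 5′ to 3′ on the strand of the gene, and capitals mark the ETS, NRF1, YY1 and GC box matches on either strand. Adjacent capitals in GCGCATGCGC are 2 overlapping NRF1 matches, 1 on each strand.
Sdhb promoter, chr4:140961021-140961320 (+ strand): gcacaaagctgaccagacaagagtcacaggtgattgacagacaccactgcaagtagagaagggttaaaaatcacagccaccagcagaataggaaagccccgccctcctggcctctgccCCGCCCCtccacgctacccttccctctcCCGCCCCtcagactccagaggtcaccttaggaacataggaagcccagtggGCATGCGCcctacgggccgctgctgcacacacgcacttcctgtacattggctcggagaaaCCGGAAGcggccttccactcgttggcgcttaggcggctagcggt
Atp5k promoter, chr5:108434350-108434649 (− strand): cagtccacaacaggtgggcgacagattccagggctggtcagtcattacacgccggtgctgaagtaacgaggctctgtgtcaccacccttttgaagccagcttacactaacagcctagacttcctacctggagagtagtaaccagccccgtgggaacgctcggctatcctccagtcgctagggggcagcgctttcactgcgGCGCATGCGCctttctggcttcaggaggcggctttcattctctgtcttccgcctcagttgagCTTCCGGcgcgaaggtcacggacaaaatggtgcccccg
Cox6b1 promoter, chr7:30626065-30626364 (− strand): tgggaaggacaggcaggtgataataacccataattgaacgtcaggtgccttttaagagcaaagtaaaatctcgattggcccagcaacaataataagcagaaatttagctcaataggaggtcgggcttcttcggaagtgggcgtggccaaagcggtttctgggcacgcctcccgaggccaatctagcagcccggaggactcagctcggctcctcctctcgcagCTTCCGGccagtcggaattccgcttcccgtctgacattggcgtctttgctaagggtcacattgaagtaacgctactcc
Cox6b2 promoter, chr7:4753045-4753344 (− strand): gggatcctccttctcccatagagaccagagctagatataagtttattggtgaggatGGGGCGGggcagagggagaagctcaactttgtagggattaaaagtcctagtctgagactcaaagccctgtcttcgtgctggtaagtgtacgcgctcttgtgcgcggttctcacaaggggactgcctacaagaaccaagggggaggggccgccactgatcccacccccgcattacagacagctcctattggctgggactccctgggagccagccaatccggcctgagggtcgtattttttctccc
Atp5g1 promoter, chr11:96075582-96075881 (− strand): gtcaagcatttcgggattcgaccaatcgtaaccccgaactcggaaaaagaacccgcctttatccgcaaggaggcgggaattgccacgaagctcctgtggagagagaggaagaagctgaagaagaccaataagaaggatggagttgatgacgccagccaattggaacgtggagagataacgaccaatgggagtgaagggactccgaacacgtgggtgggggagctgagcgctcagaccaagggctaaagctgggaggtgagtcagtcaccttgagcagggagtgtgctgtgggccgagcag
Atp5g2 promoter, chr15:102670998-102671297 (− strand): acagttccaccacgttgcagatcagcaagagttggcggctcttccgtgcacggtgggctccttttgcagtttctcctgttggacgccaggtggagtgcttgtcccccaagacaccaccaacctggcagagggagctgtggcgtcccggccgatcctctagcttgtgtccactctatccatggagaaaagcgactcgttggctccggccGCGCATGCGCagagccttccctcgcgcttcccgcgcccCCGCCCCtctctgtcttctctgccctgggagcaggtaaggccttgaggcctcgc
*Sdhb* carried 1 ETS core, 1 NRF1 core and 2 GC boxes in this window. *Cox6b1* carried 1 ETS core, and *Cox6b2* carried 1 GC box and none of the other marked motifs. *Atp5g1* carried none of the marked motifs, while *Atp5g2* carried 2 overlapping NRF1 matches and 1 GC box. Across the members, the median log2 ratio after GSK-J4 without AA was −0.50 for the 17 genes with an ETS core and −0.42 for the others with a window. For the NRF1 core these medians were −0.40 with and −0.44 without the match, and for the GC box −0.33 and −0.51. These are descriptions of 1 pair of libraries.

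The members were among the most abundant transcripts of these cells. In PBS+DMSO, 41 of the 80 had an FPKM of at least 100, and their FPKM ran from 0.0538 for *Cox6a2* to 1176 for *Atp5b*, with a median of 105. *Atp5b*, the catalytic beta subunit of the ATP synthase, was the highest member in every library and ranked 45 among all genes with PBS+DMSO and 62 with PBS+GSK-J4. *Cox6c*, a small subunit of complex IV, was the next highest member in all 4 libraries, at 569.8, 455, 572 and 411. *Ndufa4l2*, a relative of the complex IV subunit *Ndufa4*, was counted in complex IV and not in complex I. By complex, the median FPKM in PBS+DMSO was 68.3 for 33 members of complex I, 101 for 4 of complex II, 151 for 7 of complex III, 147 for 14 of complex IV and 351 for 12 of complex V. Complex V was thus the highest and complex I the lowest of the complexes, and the 8 assembly factors of complex I were lower, with a median of 11.8.

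**Figure D1:**
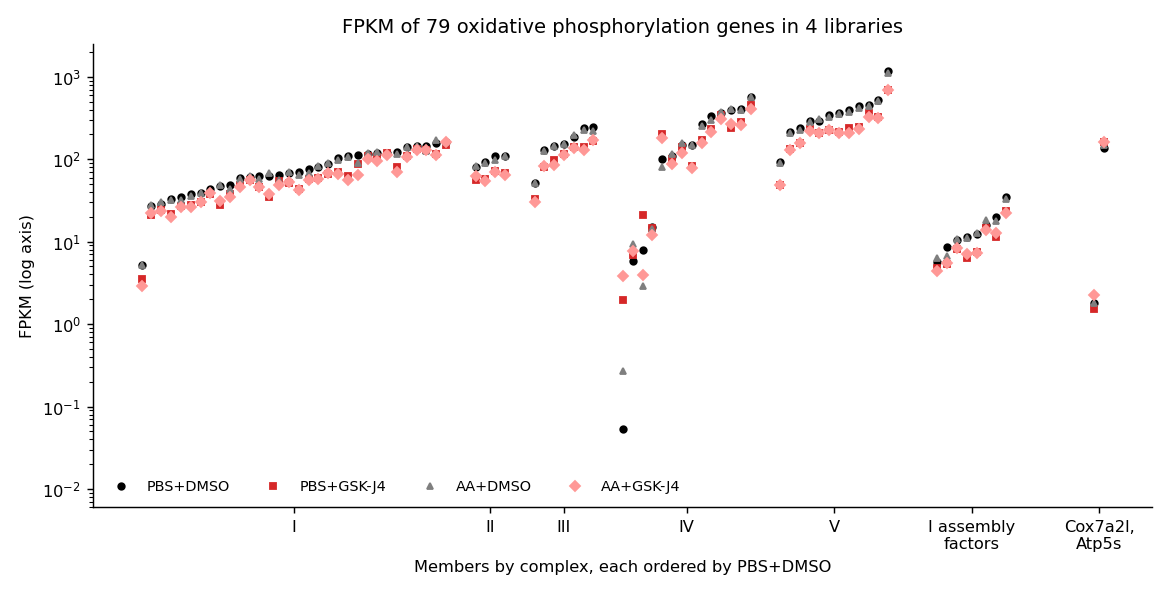
FPKM (log axis) of the 79 members that reached 1 in either library without AA, grouped by respiratory complex and ordered within each group by PBS+DMSO, with 1 point for each of the 4 libraries. Most members have both GSK-J4 libraries below the DMSO libraries as deposited, complex V sits highest, and the lowest points are those of Cox6a2 in complex IV.

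GSK-J4 against DMSO was compared first without AA. As deposited, 74 of the 79 members that passed the filter were lower with GSK-J4 and 5 were higher, with a median log2 ratio of −0.43. With AA, 73 were lower and 6 higher, and the median was −0.45. Of all genes, 5798 of 9196 were lower without AA and 5684 of 9139 with AA. The summed FPKM of these members went from 12087 to 8708, 72.0% of the DMSO value, without AA, and from 11772 to 8277, 70.3%, with AA. Against the sum of all genes, their share was 3.35%, 3.16%, 3.44% and 3.05%. Relative to the median of all genes the members' medians were −0.25 and −0.29, and 61 and 69 of 79 lay below it. With the libraries scaled to the same total FPKM, the counts of lower members were 44 and 56 of 79, and with each divided by its upper quartile 56 and 65.

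Abundant genes as a whole were lower after GSK-J4. In the highest decile of mean FPKM, which starts at 56.7 and holds 50 of the 79 members, the median log2 ratio of all genes was −0.59 without AA and −0.54 with AA. In the lowest decile it was 0.29 and 0.27. Measured from the median of their own decile, the members' median was 0.06 without AA and −0.01 with AA, and 34 and 40 of 79 lay below it. The members were thus lower than genes at large and close to other genes of their own abundance. Within the 77 members of FPKM at least 5, Spearman's rho of the ratio with mean expression was −0.13 and −0.21, and with transcript length (76 members) −0.27 and −0.18. The median annotated transcript of a member had 918 bases, against 3024 for all genes. These correlations are across genes of 1 library pair and carry no p-value, and the part of expression level and length in the ratios was not tested.

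No member was at least 2-fold lower, where 3.5% of 9196 genes were lower by this much without AA and 3.38% of 9139 with AA. At 1.5-fold, 26 members were lower without AA (32.9%) and 25 with AA (31.6%), against 19.3% and 17.8% of all genes. These counts depended on the scaling. After upper quartile scaling 1 member (*Atp5g1*, 1.27%) and 5 members (6.33%) were lower by 1.5-fold, against 7.38% and 7.24% of all genes. After same-total scaling 0 and 1 (*Ndufb10*, 1.27%) were, against 4.59% and 5.44% of all genes. The share of members was thus above that of all genes as deposited and below it on each of these scales. Among higher genes, 2 members reached 2-fold without AA (*Cox6a2* and *Ndufa4l2*, 2.53%) against 4.96% of all genes. With AA, 2 members reached it (*Cox6a2* and *Cox6b2*) against 4.13%. *Cox6a2* passed the filter in both comparisons only through the GSK-J4 library, so it could be called only as higher. *Cox6b2* without AA lay at the threshold, with an FPKM ratio of 2.0 and a log2 ratio of 0.99 with the pseudocount, and it passed under upper quartile and same-total scaling (1.28 and 1.38). All-gene counts at 2-fold without AA turned from 322 lower and 456 higher to 96 and 808 under same-total scaling. As deposited, members lower by 1.5-fold without AA included 9 of the 12 members of complex V, 5 of 32 of complex I, 3 each of complexes II, III and IV, and 3 of the 8 assembly factors.

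**Figure D2:**
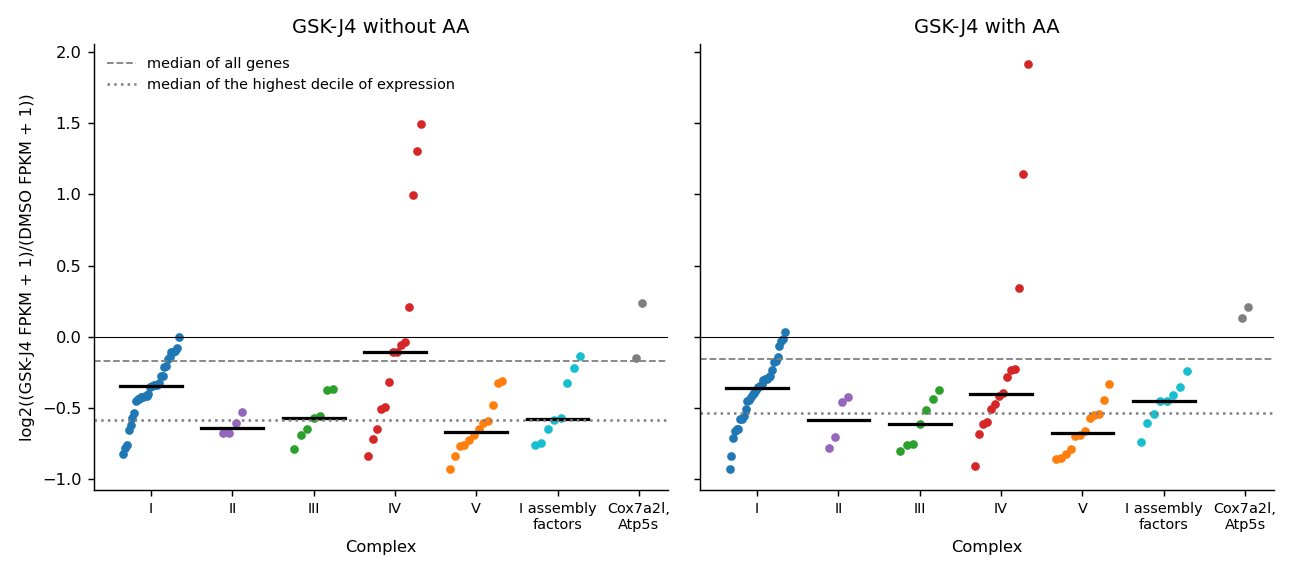
Log2 ratio of GSK-J4 to DMSO (pseudocount 1, FPKM as deposited) for each of the 79 members by complex, without AA (left) and with AA (right), with the median of each complex as a black bar, of all genes as a dashed line and of the highest decile of expression as a dotted line. Complex V has the lowest median in both panels (−0.67 and −0.68), and complex IV holds the points above 0.99. Scaling to the same total FPKM shifts every point up, so that the medians of complexes I and IV without AA are 0.03 and 0.28. For the 9 widely expressed subunits of complex IV this scaled median is −0.11. The value of 0.28 also includes Cox6a2, Cox6b2, Cox7a1, Cox7b2 and Ndufa4l2.

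Complex I had 32 members that passed the filter, all lower without AA and 31 lower with AA as deposited, with medians of −0.35 and −0.36. After same-total scaling 15 and 19 of 32 were lower. The catalytic subunits, most of which bind the flavin or iron-sulfur clusters or form the quinone site, had medians of −0.60 and −0.57 over 6 genes. The 26 accessory subunits, which surround this core, had −0.34 and −0.32. Under same-total scaling the catalytic medians were −0.22 and −0.24 and the accessory ones 0.04 and 0.01, so the catalytic subunits were lower than the accessory ones on each scale while the sign of the accessory median depended on it. The catalytic genes also have longer annotated transcripts, with a median of 1623 bases (7 genes, before the filter) against 868. The part of length in this difference was not tested. *Ndufs7*, an iron-sulfur subunit next to the quinone site, had 63.0, 35.0, 67.6 and 37.4 FPKM and log2 ratios of −0.83 and −0.84. *Ndufs8*, another iron-sulfur subunit, had 47.8, 27.8, 49.0 and 30.9 and ratios of −0.76 and −0.65. Both genes were lower in each GSK-J4 library than in either DMSO library. *Ndufs1*, the largest iron-sulfur subunit, gave ratios of −0.66 and −0.58, *Ndufv2* −0.54 and −0.56, *Ndufs3* −0.44 and −0.45, and *Ndufv1*, which binds the flavin, −0.42 and −0.40.

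Among the accessory subunits of complex I, *Ndufb10* was the lowest in both comparisons, and *Ndufb6* was the highest by the mean of the comparisons. *Ndufb10* had 108, 62.4, 107 and 55.4 FPKM, with ratios of −0.79 and −0.93. *Ndufb6* had 121, 120.3, 115 and 114, with ratios of −0.003 and −0.02. The 4 values of *Ndufb6* lay between 114 and 121, while the GSK-J4 libraries held 0.576 and 0.519 times the DMSO value for *Ndufb10*. Both encode small subunits of the membrane arm. Exons of *Ndufb6* share 257 bases with *Smim27* on the opposite strand, and the part of such reads in its values was not tested. The X-linked members *Ndufa1* and *Ndufb11* of complex I had ratios of −0.14 and 0.03, and of −0.11 and −0.14, and *Cox7b* of complex IV had −0.51 and −0.60. The median of the 3 X-linked members was −0.14 in both comparisons.

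Complex II, succinate dehydrogenase, is encoded wholly in the nucleus and was covered by all 4 subunits. Its medians were −0.64 and −0.58, and every subunit was lower in both comparisons under each of the 3 scalings. *Sdha*, which binds the flavin and oxidizes succinate, had 109, 71.5, 97.4 and 70.4 FPKM and ratios of −0.61 and −0.46. *Sdhb*, whose promoter is printed above, had 80.8, 55.7, 83.5 and 62.0, with ratios of −0.53 and −0.42. The membrane anchors *Sdhc* and *Sdhd* gave −0.68 and −0.70, and −0.68 and −0.78. As deposited, both GSK-J4 libraries were below both DMSO libraries in each of the 4 genes. The share of all genes with this order was not counted, and the order across all 4 libraries can move with the scaling.

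Complex III had 7 members, all lower in both comparisons as deposited, with medians of −0.57 and −0.62. Under same-total scaling 5 and 7 of them were lower. *Uqcrh*, the hinge protein that holds cytochrome c1, was the lowest at 241, 139, 224 and 128 FPKM, with ratios of −0.79 and −0.80. *Uqcrfs1*, the Rieske iron-sulfur protein that takes electrons from ubiquinol, had 52.1, 32.9, 51.5 and 30.1 and ratios of −0.65 and −0.75. The core proteins *Uqcrc1* and *Uqcrc2* gave −0.37 and −0.44, and −0.69 and −0.62. *Uqcrb*, which helps bind ubiquinone, had 248, 166, 223 and 171, with ratios of −0.57 and −0.37.

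Complex V had 12 members and the lowest medians of the complexes, −0.67 and −0.68. All were lower in both comparisons as deposited and after upper quartile scaling, and 10 and 11 of 12 after same-total scaling. The subunits of the catalytic head and shaft were lower under each of these scalings. *Atp5b* had 1176, 692, 1111 and 688 FPKM and ratios of −0.76 and −0.69, *Atp5a1* (alpha) had ratios of −0.69 and −0.70, and *Atp5c1* (gamma, the shaft) −0.77 and −0.79. *Atp5o*, which joins the head to the stator, gave −0.59 and −0.55. From the membrane part, *Atp5k* had 439, 245, 414 and 233 and ratios of −0.84 and −0.83. Measured from their own decile of expression, the members of complex V had medians of −0.09 and −0.14, with 9 and 10 of 12 below 0, and those of complex I had 0.15 and 0.10, with 8 and 11 of 32 below 0.

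The c subunit of the ATP synthase forms the rotating ring and is made from several genes with different import signals. *Atp5g1* (chr11:96071446-96075934, mm10, as in the tables) had 93.8, 48.8, 89.5 and 48.9 FPKM. Its ratios of −0.93 and −0.86 made it the lowest member without AA and the lowest of complex V in both. *Atp5g2* had 290.0, 233, 280.0 and 222, with ratios of −0.32 and −0.33, the highest of complex V. *Atp5g1* was 32.3%, 21.0%, 32.0% and 22.0% of *Atp5g2*. These percentages compare genes within a library and do not depend on scaling. The sum of both genes went from 384 to 282 and from 369.5 to 271 FPKM as deposited, 73.4% and 73.3% of the DMSO value, and after same-total scaling it was 96.0% and 92.6% of it.

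Complex IV stood out by its spread. Its 9 widely expressed subunits were lower in both comparisons as deposited, with medians of −0.50 and −0.51, and 5 and 8 of 9 were lower after same-total scaling. *Cox7c*, a small structural subunit, had 147, 81.8, 147 and 78.1 FPKM and ratios of −0.84 and −0.91. *Cox5a* had ratios of −0.72 and −0.61 and *Cox5b* −0.11 and −0.42. The 5 other members were 4 tissue-restricted forms and *Ndufa4l2*, and they are given 1 by 1. *Cox6b2* had ratios of 0.99 and 1.14, *Ndufa4l2* 1.31 and 0.34, *Cox7b2* 0.21 and −0.23, and *Cox7a1* −0.04 and −0.23. *Cox6a2* passed the filter only through the GSK-J4 libraries, so its ratios could only be positive. The spread between the medians of complexes I to V, with these 5 included, was 0.57 without AA and 0.31 with AA. Without them it was 0.32 and 0.31.

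*Cox6b2*, the testis form of the subunit that faces the intermembrane space, had 99.9, 199.97, 81.5 and 181 FPKM. Both GSK-J4 libraries were above both DMSO libraries, 2.0-fold without AA and 2.22-fold with AA, and the log2 ratios of 0.99 and 1.14 ranked 465 of 9196 and 282 of 9139 from the highest. *Cox6b1* had 333, 235, 302 and 212 and ratios of −0.50 and −0.51. *Cox6b2* was 30.0%, 84.9%, 27.0% and 85.5% of *Cox6b1*. The sum of both genes was 433, 435, 384 and 393 FPKM as deposited, and with GSK-J4 it was 1.01 and 1.02 times the DMSO value. After same-total scaling it was 1.32 and 1.29 times that value. *Cox6b2* lies at chr7:4751795-4753078 and *Cox6b1* at chr7:30616908-30626200 (mm10, as in the tables), and the promoter of the first, printed above, held no ETS, NRF1 or YY1 core.

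The other tissue forms were weakly expressed. *Cox6a2*, the heart and muscle form of subunit VIa, had 0.0538, 1.97, 0.271 and 3.797 FPKM, with ratios of 1.496 and 1.92 that ranked 157 and 51 from the highest. It passed the filter only through the GSK-J4 libraries, so these ratios could only be positive. Its widely expressed partner *Cox6a1* had 368, 342, 374 and 307, so that *Cox6a2* remained at 1.24% of it or less. With a pseudocount of 5 the ratios of *Cox6a2* were 0.46 and 0.74. *Cox7a1*, also of heart and muscle, had 15.2, 14.8, 14.2 and 11.99 and ratios of −0.04 and −0.23. *Cox7b2*, a testis form, had 5.88, 6.95, 9.34 and 7.79 and ratios of 0.21 and −0.23. Exons of *Cox6a2* share 70 bases with *Itgad* on the opposite strand. In all, exons of 20 members overlap those of a gene on the other strand, and whether the counting used strand is not given in the sources used here.

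*Ndufa4l2*, a relative of the complex IV subunit *Ndufa4* that is known from hypoxic cells, had 7.90, 21.0, 2.89 and 3.93 FPKM. PBS+GSK-J4 was the highest library and both AA libraries were the lowest. The log2 ratio after GSK-J4 was 1.31 without AA and 0.34 with AA, a difference of −0.96, the widest between the comparisons among the members. The gene lies at chr10:127514945-127522486 (mm10, as in the tables), and its exons share 32 bases with *Shmt2* on the opposite strand. *Shmt2*, a mitochondrial enzyme of serine metabolism, had 76.8, 102, 72.8 and 103 FPKM, with GSK-J4 ratios of 0.40 and 0.50. Whether its reads enter the values of *Ndufa4l2* was not tested. Reads from the 2 genes in the shared bases cannot be told apart without strand.

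**Figure D3:**
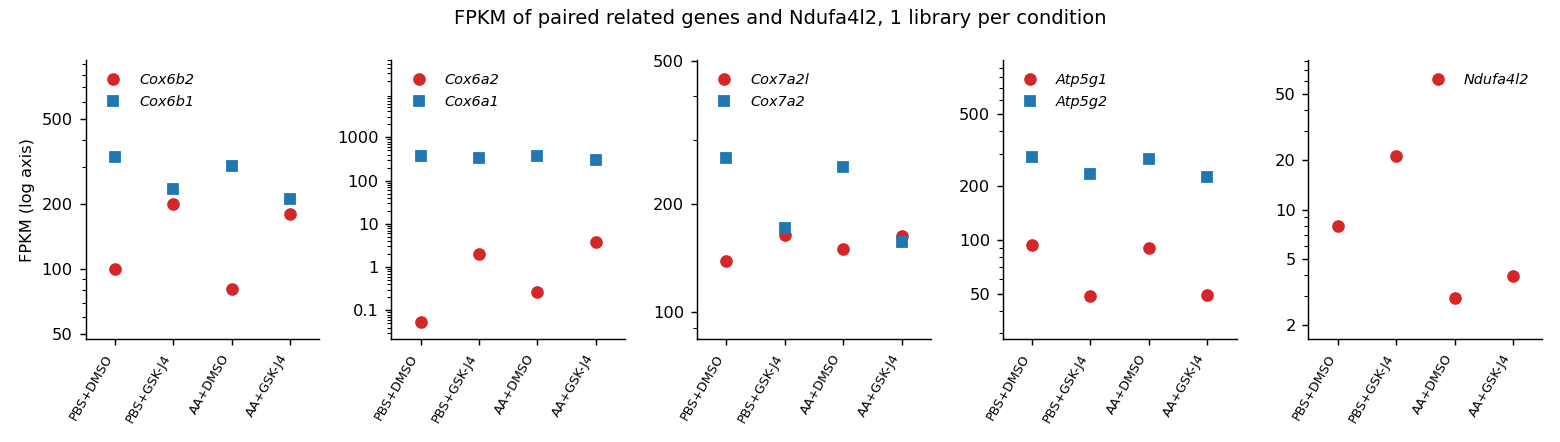
FPKM (log axis, a separate scale in each panel) in the 4 libraries, 1 point per library, for Cox6b2 with Cox6b1, Cox6a2 with Cox6a1, Cox7a2l with Cox7a2, Atp5g1 with Atp5g2, and Ndufa4l2. Cox6b2 is near Cox6b1 only in the GSK-J4 libraries (84.9% and 85.5% of it), Atp5g1 moves away from Atp5g2, and Ndufa4l2 is highest in PBS+GSK-J4 at 21.0.

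The rule also took in genes that are no subunits. *Cox7a2l*, which helps join complexes III and IV into supercomplexes, had 139, 164, 149 and 163 FPKM and ratios of 0.24 and 0.13. It was higher in both GSK-J4 libraries as deposited and under upper quartile and same-total scaling. It was 51.5%, 95.8%, 58.9% and 104% of its relative *Cox7a2*. *Cox7a2* itself had 269, 171, 253 and 157. The assembly factors of complex I, *Ndufaf1* to *Ndufaf7* and *Atp5sl*, had medians of −0.58 and −0.45, and all 8 were lower in both comparisons as deposited and 5 and 7 after same-total scaling. Measured from their own decile, 7 and 8 of the 8 were below 0, with medians of −0.34 and −0.23. *Ndufaf5*, which modifies an arginine of *Ndufs7*, had 12.3, 7.51, 12.8 and 7.23 FPKM and was the lowest by the mean of the comparisons (−0.65 and −0.74), and *Atp5sl* was the highest (−0.13 and −0.41).

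The ratios without and with AA were alike across the members. Of 79 members, 72 were lower in both comparisons, 4 (*Cox6a2*, *Cox6b2*, *Cox7a2l* and *Ndufa4l2*) were higher in both and 3 differed in sign. The sign was the same in 76 of the 79, against 7689 of 8972 genes (85.7%). The ratios differed by 0.2 or less in 66 of 79 members (83.5%), against 67.7% of 8972 genes. Spearman's rho was 0.88 over the members and 0.84 over all genes, with 4 different libraries in the comparisons, as a description with no p-value. Beside *Ndufa4l2*, the ratio was lower with AA for *Cox7b2* (difference −0.44) and *Cox8a* (−0.34), which had 147, 141, 155 and 118 FPKM. It was higher with AA for *Ndufaf6* (0.34), *Ndufaf4* (0.29) and *Uqcrb* (0.20) among members with an FPKM of at least 5.

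**Figure D4:**
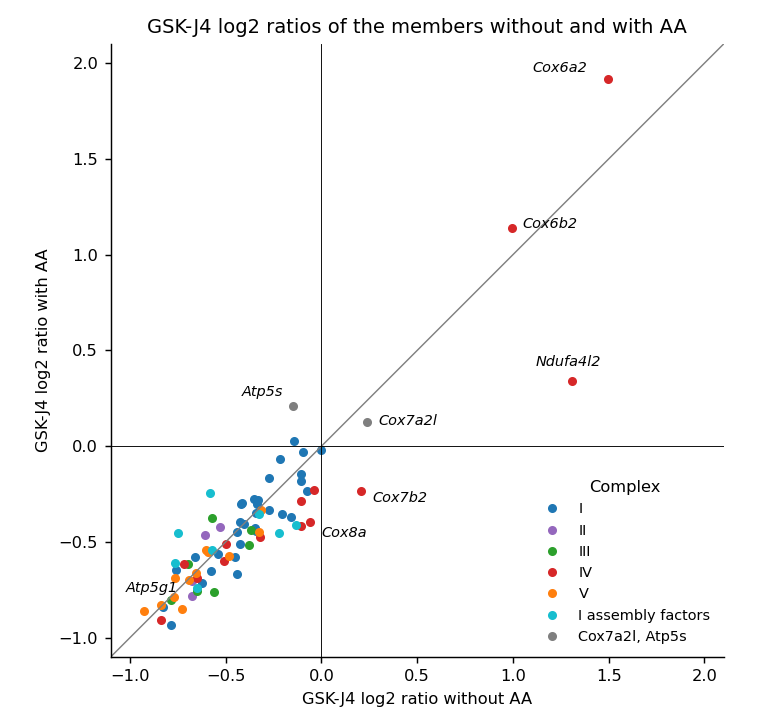
Log2 ratio of GSK-J4 to DMSO without AA (horizontal) against with AA (vertical) for the 79 members, coloured by complex, FPKM as deposited. Most points lie along the line of equal values in the lower left quadrant (72 of 79), and Ndufa4l2 lies farthest from the line (1.31 and 0.34).

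AA against PBS was compared without and with GSK-J4. These comparisons set values of both deposited tables against each other, so that any separate scaling of the tables enters them, and they reuse the libraries of the GSK-J4 comparisons. The members' median log2 ratio was −0.02 without GSK-J4 (44 of 78 lower) and −0.05 with it (60 of 79 lower), beside −0.05 and −0.02 for all genes. The sign of the first turned with each scaling, and after same-total scaling 26 of 78 and 50 of 79 members were lower. The summed FPKM with AA was 97.4% and 95.1% of that with PBS. By complex the medians lay between −0.05 (complex V) and 0.001 (complex IV) without GSK-J4 and between −0.15 (complex IV) and −0.04 (complex V) with it.

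At 2-fold, 1 member was lower in each AA comparison, *Ndufa4l2*, where 0.735% of 8843 and 0.599% of 9180 genes were lower by this much. None was at least 2-fold higher, against 0.565% and 0.512%. *Ndufa4l2* had ratios of −1.19 and −2.16, and the second was the lowest of all 9180 genes, with 21.0 FPKM in PBS+GSK-J4 and 3.93 in AA+GSK-J4. Its first ratio ranked 31 of 8843 from the lowest. The gene with the next lowest mean AA ratio among the members was *Ndufv3*, a small subunit of the NADH-binding module, with 111, 87.4, 88.9 and 65.1 FPKM and ratios of −0.32 and −0.42. *Ndufv3* was lower with AA under each scaling. *Cox6b2* followed with −0.29 and −0.14. The highest mean AA ratios were those of *Cox6a2* (0.27 and 0.69), *Cox7b2* (0.59 and 0.15) and *Atp5s* (0.01 and 0.37), and *Cox6a2* was below 1 FPKM in both libraries of the first comparison.

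**Figure D5:**
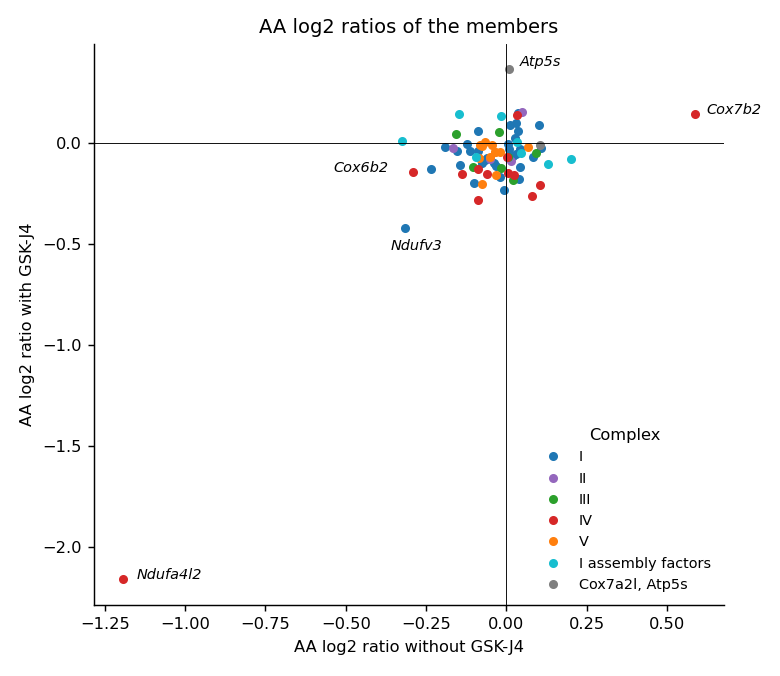
Log2 ratio of AA to PBS without GSK-J4 (horizontal) against with GSK-J4 (vertical) for the 78 members with values in both, coloured by complex, FPKM as deposited. The members cluster near 0, and Ndufa4l2 stands apart at −1.19 and −2.16.

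Other genes of mitochondrial respiration were read from lists for comparison, by their counts and medians after GSK-J4 without and with AA. Of 7 further electron carriers and ATP synthase genes, 5 were in the tables (*Cyc1*, *Cycs*, *Usmg5*, *Atpif1* and *2010107E04Rik*), all lower as deposited, with medians of −0.67 and −0.68. *Cycs*, cytochrome c, which carries electrons from complex III to complex IV, had 129, 70.2, 113 and 70.0 FPKM and ratios of −0.87 and −0.68. *Cyc1*, cytochrome c1 of complex III, had 164, 99.1, 163 and 93.5 and ratios of −0.72 and −0.80. The 35 assembly factors outside the name rule had medians of −0.18 and −0.19, near those of all genes, with 25 lower and 10 higher in each comparison. By the mean of the comparisons, *Foxred1*, needed for complex I, was lowest (−0.65 and −1.41) and *Sdhaf1*, needed for complex II, was highest (0.49 and 0.15).

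All 15 enzymes of the tricarboxylic acid cycle and pyruvate dehydrogenase in the tables were lower as deposited, with medians of −0.55 and −0.50. By the mean of the comparisons they ran from *Idh3a* (−0.60 and −0.99) to *Idh2* (−0.26 and −0.16). Of 21 genes of mitochondrial protein import, 21 and 20 were lower, with medians of −0.60 and −0.53. *Tomm5* of the outer membrane pore was the lowest (−1.07 and −1.21), and *Hspa9*, the chaperone of the matrix, was the highest (−0.22 and 0.03). Of 15 genes of mitochondrial transcription, replication and biogenesis, 14 were lower in each, with medians of −0.47 and −0.48. In that list *Ssbp1*, which binds single-stranded mitochondrial DNA, had −0.94 and −0.999, *Gabpa* −0.80 and −0.68, *Yy1* −0.65 and −0.50, and *Esrra* 0.25 and 0.20. The 66 mitochondrial ribosomal protein genes had medians of −0.54 and −0.55, and the 72 cytosolic ones −0.24 and −0.19. The members, at −0.43 and −0.45, lay between these ribosomal lists. These values are as deposited and move with the scaling.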

How the data were processed

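RNA-Seq of 4 libraries of LF2 ESCs was used. On the Maser platform the authors removed duplicates from single-end reads, aligned with TopHat2 and quantified with Cufflinks2. CummeRbund and Genome Explorer followed, with mm10 named in the submitters' processing notes. Versions and the scaling between libraries are not given in the sources used here. The FPKM values they deposited are in 2 tables of 11033 coding sequence groups, under column names that say log10 although the values are linear. The fold change, p-value and q-value columns of the authors were not used. Removal of duplicates can lower the values of abundant transcripts, and its size is not known here. Sequencing depth is not given, so no counting interval is stated.

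FPKM was summed per gene over 9936 gene names, and 157 genes with a failed estimate were left out. Log2 ratios used a pseudocount of 1 for genes that reached an FPKM of 1 in a library of the pair. Deciles of mean FPKM gave the median of genes of like abundance. With 1 library per condition no test was run, and counts use folds of 2 and 1.5. Genes were named by a rule: catalytic subunits, the highest and lowest of each complex, members changed 2-fold, paired isoforms, X-linked members, the largest and smallest AA ratios and the largest differences between the GSK-J4 comparisons. The values of 1 member are not reported here. Other members that are named were chosen after their values were seen. The members, lists and rule were chosen with earlier results of these data known. Alternatives were pseudocounts of 0.1 and 5, no filter or an FPKM of at least 5, centring, upper quartile and total scaling, 1 group per gene, failed genes included, widely expressed subunits only, complexes by name and adjustment for expression. GENCODE M21 gave exon overlaps and lengths, and RefSeq the promoters. Annotated pseudogenes named after a member exist for 4 members (*Atp5c1*, *Atp5k*, *Atp5l* and *Uqcrh*), and how reads shared with them were counted is not given, so those values are uncertain. Pseudogenes annotated under other names were not searched, so reads shared by the remaining members are not known. The code was checked on simulated data, and used Python 3.11.15, numpy 2.4.6, pandas 2.3.3 and matplotlib 3.10.9.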

Additional observations from a re-analysis of the deposited data

Results flagged for a closer look

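For 3 members the log2 ratio after GSK-J4 had opposite signs without and with AA, with 1 library in each condition, and the difference was not tested. *Atp5s*, a factor associated with the ATP synthase, had −0.15 without AA and 0.21 with AA, a difference of 0.36, from 1.81, 1.53, 1.82 and 2.26 FPKM in PBS+DMSO, PBS+GSK-J4, AA+DMSO and AA+GSK-J4. *Cox7b2* had 0.21 and −0.23, a difference of −0.44, and after same-total scaling both of its ratios were positive (0.54 and 0.07). *Ndufa1*, a small subunit of complex I, had −0.14 and 0.03, a difference of 0.17, from 144, 130.4, 126 and 129 FPKM.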

How the results depend on the processing

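Of 86 values under the alternatives, 71 stayed within the tolerance of 0.1 log2, or 1.5 times for counts, 10 moved and 5 changed sign. No replicate could be left out. The labels give no replicate numbers, so no fit with a replicate block was made. For GSK-J4 without AA, the members' median of −0.43 became −0.25 after centring on all genes, −0.15 after upper quartile scaling, −0.0450 after scaling to the same total and 0.0567 relative to genes of the same decile of expression. With AA, −0.45 became −0.29, −0.20, −0.13 and −0.00754. At 1.5-fold in place of 2-fold, the members lower without and with AA numbered 26 and 25 in place of 0. The spread between complexes without AA was 0.32 in place of 0.57 with widely expressed subunits only. For AA without GSK-J4 the median of −0.02 became 0.0252 after centring, 0.0237 after upper quartile scaling, 0.0510 after scaling to the same total and 0.0411 relative to the same decile. By construction each scaling multiplies a whole library, and with the pseudocount weakly expressed members moved less than abundant ones. The pseudocounts, filters and other alternatives moved none of these medians past the tolerance. The scaled counts at 1.5-fold and the scaled sums of paired genes were chosen after seeing the data.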
